A study of Mus musculus with 12 samples.

Results

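The cytosolic ribosomal protein genes are the 88 of 21792 rows of the expression table whose symbol starts with Rpl or Rps followed by a number, together with Rplp0, Rplp1, Rplp2 and Rpsa. Rows named as pseudogenes, the Rps6k kinases and Rps19bp1 were left out. Of the 88 genes, 77 encode core proteins, with 31 in the small subunit and 46 in the large subunit; the 46 include the 3 proteins of the stalk. A further 5 are paralogues of core genes (Rpl3l, Rpl7l1, Rpl22l1, Rpl36al and Rps27l). The other 6 are retrogenes or near-identical copies (Rpl37rt, Rps27rt, Rps12l1, Rps12l2, Rps3a2 and Rps3a3). All 88 genes passed the filter on low values, and none was removed.

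RNA was sequenced from colon tumours that azoxymethane, a colon carcinogen, had induced in FvB mice, by intraperitoneal injection of 10 mg/kg weekly for 6 weeks; the experiment ended in week 16. Double deficient tumours lacked miR-34a and p53 in intestinal epithelial cells (3 libraries), miR-34a deficient tumours lacked miR-34a alone (3 libraries), p53 deficient tumours lacked p53 alone (3 libraries), and wt tumours carried neither deletion (3 libraries). The deletions are limited to intestinal epithelial cells, so RNA of other cells in a tumour comes from undeleted cells. All 4 groups received the carcinogen.

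A ribosome joins a small subunit, which reads the messenger RNA, to a large subunit, which forms the peptide bonds. Its proteins are made in matched amounts, and their messenger RNAs share a start rich in pyrimidines, the 5' terminal oligopyrimidine tract, through which mTOR signalling controls their translation. In stressed nucleoli Rpl5 and Rpl11 bind MDM2, which stabilizes p53, and p53 in turn represses the transcription of ribosomal RNA. Mammalian genomes hold many processed pseudogenes copied from these messenger RNAs, so reads can match a gene and its copies alike.

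Sequences of 3 genes and their copies are shown first, because their values turned out to move in opposite directions. Pairs were chosen after the values were seen. Each line gives 60 bases of the coding sequence of GENCODE M21 (GRCm38), and capitals mark the bases that differ between the gene and the copy. Positions are counted from 1 at the first base of the start codon, with the gene's base first. Rpl35a and its processed pseudogene Rpl35a-ps5 (chr5:33076038-33076370, plus strand) are shown from base 112 to base 171. They differ by G156A, A171G and C234T over 330 bases.
Rpl35a: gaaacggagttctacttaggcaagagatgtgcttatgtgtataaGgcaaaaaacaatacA
Rpl35a-ps5: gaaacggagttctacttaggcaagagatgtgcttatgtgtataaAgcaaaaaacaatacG
Rpl3 and Rpl3-ps1 (chrX:13202571-13203780, plus strand) are shown from base 1 to base 60. They differ by C57A and T786C over 1209 bases, an identity of 99.8%.
Rpl3: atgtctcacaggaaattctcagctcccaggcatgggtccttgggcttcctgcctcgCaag
Rpl3-ps1: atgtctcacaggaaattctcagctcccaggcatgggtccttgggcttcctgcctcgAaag
Rps2 and Rps2-ps13 (chrX:52898588-52899469, plus strand) are shown from base 25 to base 84, and differ at 7 of 879 bases.
Rps2: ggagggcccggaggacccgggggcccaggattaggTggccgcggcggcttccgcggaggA
Rps2-ps13: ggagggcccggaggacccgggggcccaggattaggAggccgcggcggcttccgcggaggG

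The tract at the transcript start was read from the RefSeq promoter table (GRCm38.p6), which held 64 of the 88 genes. A run of at least 8 bases made of C and T that covered the first transcribed base was present in 17 of 67 start windows of core genes (25.4%), and in 1268 of 32851 windows of all genes (3.86%). Some genes have several annotated starts, and a window without such a run says only that these letters are absent there. The windows of Rps6, the S6 kinase substrate of the small subunit (chr4:86857343-86857382, minus strand), and of 1 start of Rpl35a (chr16:33056467-33056506, plus strand) are shown with the run in capitals. Each starts 15 bases before the transcript.
Rps6: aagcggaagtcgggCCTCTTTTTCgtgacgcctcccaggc
Rpl35a: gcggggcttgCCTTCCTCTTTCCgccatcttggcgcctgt

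The deposited values are scores, that is, normalized expression values rounded to whole numbers. Differences are log2 differences of value plus 1 with their standard error (SE), from limma with Benjamini-Hochberg adjustment over all 21322 genes tested, and a gene was called where the adjusted p was under 0.05. Trp53 fell to 401 to 598 in p53 deficient and 504 to 924 in double deficient libraries, against 3466 to 5120 in miR-34a deficient and 4126 to 4512 in wt libraries. Mir34a was not analysed here. Column sums ran from 45310209 to 101121673, and Xist alone held 52.8% of the sum of miR-34a deficient 1 and 23.2% of wt 1. Xist held 5.92%, 4.52% and 1.24% in the double deficient libraries, and at most 0.00958% in the p53 deficient ones. All 6 epithelial markers (Epcam, Krt8, Krt18, Cdh1, Vil1 and Krt20) were above 0 in every library. The Y-linked genes (4 in the list), averaged on the log2 scale, stood at 0.25 to 0.79 in double deficient libraries, at 0 in miR-34a deficient 1 and wt 1, and at 2.77 to 6.98 in the other 7. The part of the Y-linked level in the results below was not tested beyond the fit that includes it. Double deficient and p53 deficient libraries overlapped neither in Xist nor in the Y-linked level. Wherever these groups are compared below, genotype and a difference in sex cannot be told apart from that comparison alone.

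The core ribosomal protein genes were among the abundant transcripts of every tumour. Of 77 core genes, 76 had a mean value of at least 1000; the other was Rpl29, a large subunit protein, at 268. Per kilobase of transcript the highest levels were those of Rpl41, the smallest large subunit protein, at 68112 and of the stalk genes Rplp0, Rplp1 and Rplp2, whose proteins recruit translation factors, at 66072, 63491 and 57130. The lowest was the muscle paralogue Rpl3l, at 5.15 per kilobase. This ranking rests on an annotated transcript chosen for each gene, which for Rps15a was 5130 bases long. Whether the deposited scores were already adjusted for length is not known. The SD between libraries of a genotype was 0.24 on the log2 scale for the median core gene, and below 0.4 for 67 of 77.

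The core genes also moved together from library to library. Their median deviation from each gene's own mean was highest in p53 deficient 2, at 0.45 on the log2 scale, where 72 of 77 genes lay above their mean. It was 0.18 in wt 1, where 71 of 77 did. At the other end, it was -0.30 in miR-34a deficient 1, where 5 of 77 lay above their mean. The other p53 deficient libraries stood at -0.06 and 0.03, the double deficient libraries at 0.01, 0.08 and 0.14, the other miR-34a deficient libraries at -0.10 and 0.00, and the other wt libraries at -0.20 and -0.14. The double deficient libraries lay above the miR-34a deficient ones in this median, by as little as 0.0072 against 0.0044, and the other pairs of genotypes overlapped. In tumour RNA, fewer cells of a type and less RNA per cell cannot be told apart.

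**Figure D1:**
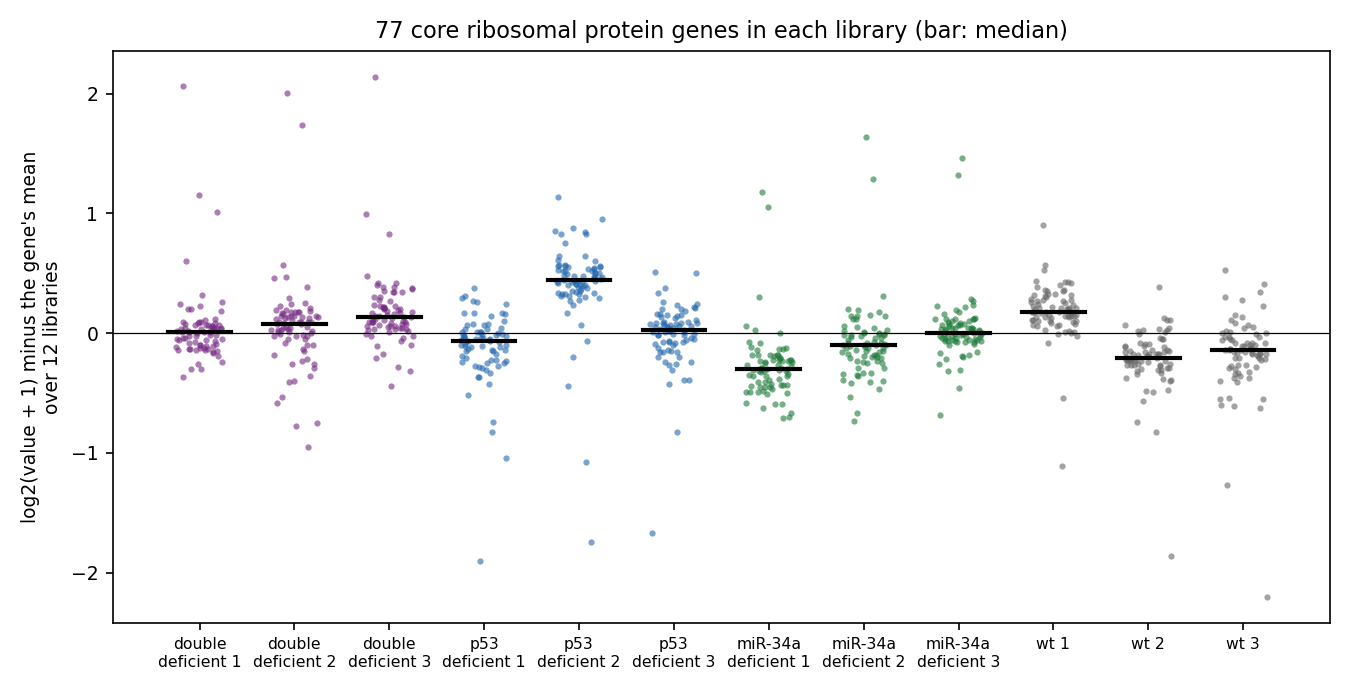
Deviation of each of the 77 core genes from its own mean over 12 libraries, on the log2(value + 1) scale, by library (points: genes, bars: medians). The median bar of p53 deficient 2 is highest (0.45) and that of miR-34a deficient 1 lowest (-0.30).

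Rpl35a, a large subunit protein whose human gene is mutated in some patients with Diamond-Blackfan anaemia, was called in every comparison of miR-34a loss and had the largest difference of the members called. The gene lies at chr16:33056453-33060189 (GRCm38, plus strand) and has 4 coding exons. Its values were 8262, 7922 and 8714 in double deficient libraries and 4475, 6149 and 5453 in miR-34a deficient libraries, against 528, 588 and 619 in p53 deficient libraries and 912, 542 and 428 in wt libraries. The 6 libraries without miR-34a lay above the other 6, with no overlap. It averaged 5359 ± 841 in miR-34a deficient and 627 ± 253 in wt libraries (SD, n = 3 each), a log2 difference of 3.15 ± 0.23 (SE; limma adjusted p = 0.000265), or 8.90-fold. Double deficient libraries averaged 8299 ± 397 (SD, n = 3). Against p53 deficient libraries, at 578 ± 46.3 (SD, n = 3), they were higher by 3.84 ± 0.23 (SE; limma adjusted p = 2.07e-05), and against wt by 3.80 ± 0.23 (SE; limma adjusted p = 1.78e-05). Against miR-34a deficient libraries the double deficient ones differed by 0.64 ± 0.23 (SE), which was not called (limma adjusted p = 0.184).

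Rpl35a was the single ribosomal protein gene called in each comparison of miR-34a loss. It was 1 of 88 in miR-34a deficient against wt, where 0.0375% of all genes tested were called. It was 1 of 88 in double deficient against p53 deficient (0.605% of all genes) and 1 of 88 in double deficient against wt (0.802%). Averaged over both p53 states, Rpl35a was higher with miR-34a loss by 3.50 ± 0.17 (SE; limma adjusted p = 1.91e-06). No other member was called there, with 0.342% of all genes called. The call held in every alternative run. Which libraries lacked miR-34a was read from the labels.

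The 6 neighbours of Rpl35a are the genes with a row whose starts come next, 3 on each side. They were called in none of the 8 comparisons (lowest limma adjusted p 0.138). Iqcg, whose annotated end lies 0.235 kb away, had values of 13, 15 and 26 in double deficient, 21, 7 and 15 in miR-34a deficient, 3, 16 and 6 in p53 deficient and 25, 16 and 27 in wt libraries. Lmln, 2.33 kb away, ran from 259 to 329 in double deficient, 290 to 360 in miR-34a deficient, 339 to 533 in p53 deficient and 307 to 404 in wt libraries. Gm17106 (chr16:32985854-33108601, minus strand) spans the locus of Rpl35a. Its values were 328, 293 and 173 in double deficient and 210, 586 and 437 in miR-34a deficient libraries. They were 657, 375 and 226 in p53 deficient and 477, 483 and 805 in wt libraries. The values of Rpl35a were not matched by Iqcg, Lmln or Gm17106.

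The annotated copies of Rpl35a ran the other way. Of 21 pseudogene transcripts that matched its coding sequence at 90% identity or more over at least 80% of its length, 14 have a row. Together those rows summed to 13, 21 and 44 in double deficient libraries and 55, 39 and 102 in miR-34a deficient libraries, against 191, 463 and 596 in p53 deficient libraries and 348, 119 and 208 in wt libraries. Rpl35a itself held 99.5 to 99.8% of the total of gene and copies in double deficient and 98.2 to 99.4% in miR-34a deficient libraries, against 50.9 to 73.4% in p53 deficient and 67.3 to 82.0% in wt libraries. Of the 13 copies tested, 7 fell over both p53 states with miR-34a loss. Gm10247 (chr16:8922060-8922389, minus strand), with values of 0, 0 and 2 in double deficient, 9, 4 and 18 in miR-34a deficient, 29, 106 and 116 in p53 deficient and 50, 21 and 31 in wt libraries, fell by 3.70 (limma adjusted p = 0.0112). Gm14279 had 3, 8 and 16 in double deficient, 17, 7 and 22 in miR-34a deficient, 57, 132 and 162 in p53 deficient and 126, 36 and 53 in wt libraries. Rpl35a-ps5 had 0, 2 and 4 in double deficient, 8, 1 and 14 in miR-34a deficient, 52, 32 and 66 in p53 deficient and 53, 19 and 48 in wt libraries. With the Y-linked level in that fit, 0 copies were called. The count of 7 became 2 on leaving out any of wt 1, wt 3, miR-34a deficient 1, p53 deficient 2, p53 deficient 3, double deficient 1 or double deficient 3, each alone. In double deficient against p53 deficient 7 copies fell, with 3 without double deficient 3, 4 without double deficient 1, and 0 with the Y-linked level or with those 2 groups alone. In double deficient against wt 4 copies fell, with 0 without wt 1, wt 3 or double deficient 1, each alone, 2 without miR-34a deficient 1, p53 deficient 3, double deficient 2 or double deficient 3, and 1 with the Y-linked level or with those 2 groups alone. Near-identical rows can share reads in counting, so the split between Rpl35a and its copies is uncertain. Summed with its copies, Rpl35a was still higher by 2.91 with miR-34a loss over both p53 states (limma adjusted p = 5.29e-05).

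**Figure D2:**
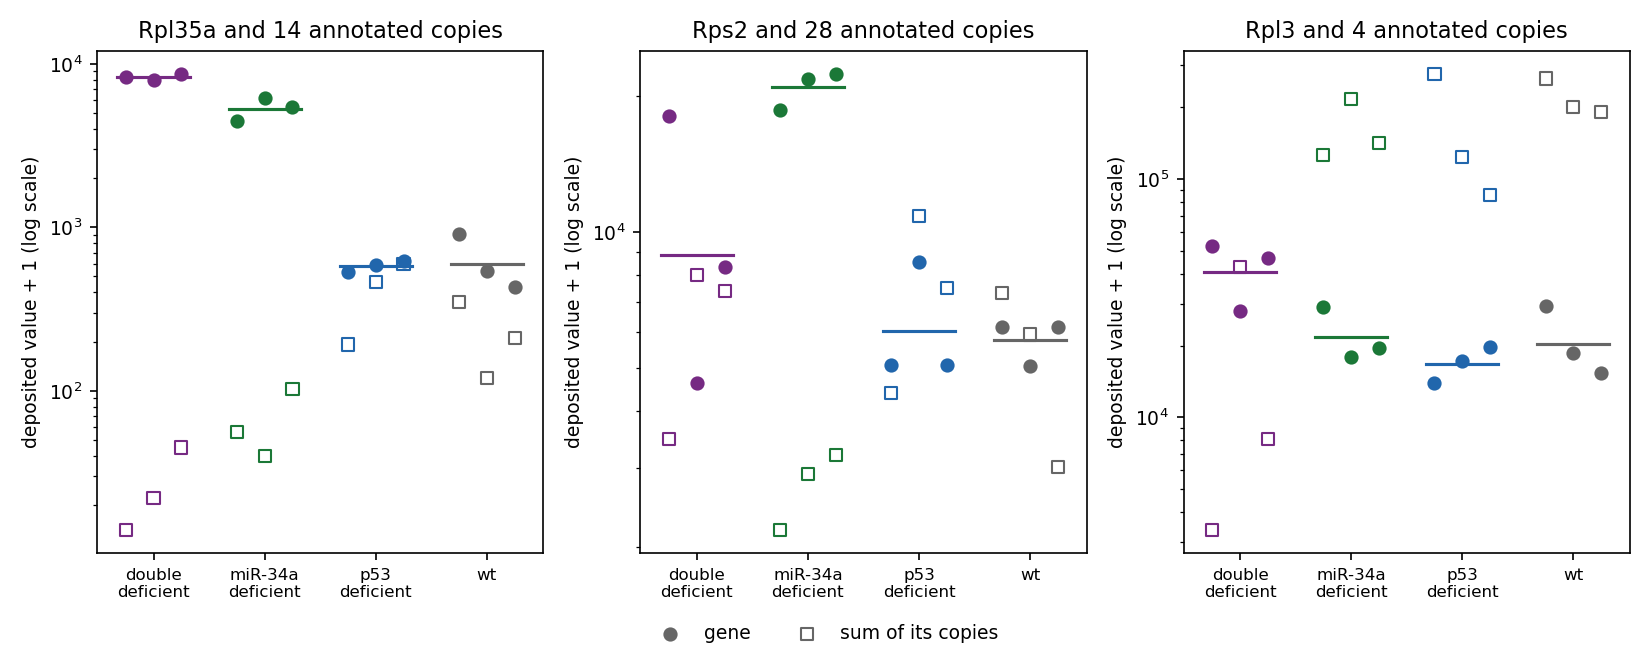
Values plus 1 (log axis) of Rpl35a, Rps2 and Rpl3 (filled circles, with the geometric mean of value plus 1 as a line) and the sum of their annotated copies (open squares) in the 12 libraries by genotype. Rpl35a lies at 4475 to 8714 in the 6 libraries without miR-34a and at 428 to 912 in the other 6, while its copies lie at 13 to 102 and 119 to 596.

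Rps2, a small subunit protein at the entrance of the messenger RNA channel, had its highest values without miR-34a. They were 18634, 21860 and 22418 in miR-34a deficient against 6165, 5043 and 6164 in wt libraries, with no overlap, a difference of 1.86 ± 0.39 (SE) that was not called (limma adjusted p = 0.255). In double deficient libraries they were 18048, 4620 and 8360, against 5062, 8573 and 5064 in p53 deficient libraries. Double deficient 1 was high and the other two overlapped with p53 deficient libraries. The 28 copy rows of Rps2 summed to 2178, 2898 and 3205 in miR-34a deficient and 7314, 5921 and 3011 in wt libraries.

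Rpl3, which lies close to the peptidyl transferase centre, had values of 52215, 27863 and 46641 in double deficient libraries, against 28924, 17903 and 19606 in miR-34a deficient, 13978, 17264 and 19632 in p53 deficient and 29356, 18591 and 15326 in wt libraries. The double deficient libraries were above all p53 deficient ones, with a difference of 1.28 ± 0.29 (SE; limma adjusted p = 0.0839), which was not called. Rpl3-ps1, its copy on chromosome X, had 1508, 41418 and 5856 in double deficient libraries, against 125388, 215169 and 140606 in miR-34a deficient, 276320, 122007 and 84203 in p53 deficient and 261977, 198208 and 190415 in wt libraries. All double deficient libraries lay below all others. Rpl3-ps1 fell by 4.91 in double deficient against wt (limma adjusted p = 0.0345) and by 4.45 in double deficient against miR-34a deficient libraries (limma adjusted p = 0.0475). Against p53 deficient libraries its difference of -4.31 was not called (limma adjusted p = 0.0634). Rpl3 held 94.0%, 39.6% and 85.2% of the total of gene and copies in double deficient libraries, and at most 18.6% in any other. With gene and copies summed, the direction of Rpl3 in double deficient against wt turned to -1.98 (limma adjusted p = 0.0212), against 1.01 for the gene row alone.

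Loss of p53 over both miR-34a states compares double deficient and p53 deficient libraries with miR-34a deficient and wt libraries. Most core genes stood slightly higher without p53, and few of them were called. Of the 88 members 4 were called, 3 higher and 1 lower, which is 4.55% and close to the 5.05% of all genes tested. The median log2 difference was 0.18 over the members and -0.06 over all genes, and 71 of 88 members lay above 0 (80.7%), against 44.5% of all genes. An unadjusted p under 0.05 was reached by 17 of 88 members (19.3%) and by 23.8% of all genes. Without p53 deficient 2, the highest library, the members' median was 0.09.

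Rpl23a, a large subunit protein at the exit of the peptide tunnel, rose with p53 loss. It had 5403, 6585 and 6999 in double deficient and 6996, 9748 and 6241 in p53 deficient libraries, against 3830, 3229 and 4696 in miR-34a deficient and 5906, 3856 and 4254 in wt libraries, a difference of 0.71 ± 0.15 (SE; limma adjusted p = 0.0290) or 1.63-fold. Each p53 deficient library lay above every wt library, and each double deficient library above every miR-34a deficient one. Rpl27, another large subunit protein, had 6741, 7724 and 8726 in double deficient and 7209, 11598 and 7830 in p53 deficient libraries, against 4617, 4509 and 5724 in miR-34a deficient and 6666, 4398 and 5802 in wt libraries. Its difference was 0.65 ± 0.15 (SE; limma adjusted p = 0.0342). Rps27a, a small subunit protein made as a fusion with ubiquitin, had 12214, 13429 and 15401 in double deficient and 14567, 15541 and 15300 in p53 deficient libraries, against 9279, 9118 and 12351 in miR-34a deficient and 13404, 8716 and 9626 in wt libraries. Its difference was 0.48 ± 0.12 (SE; limma adjusted p = 0.0481), and the highest miR-34a deficient library overlapped with the double deficient ones. Rpl23a, Rpl27 and Rps27a all lie on chromosome 11, which also carries Trp53. The members Rpl19, Rpl23, Rpl26 and Rpl38 lie there too. Whether this location has a part in the differences of these genes was not tested.

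Rps27l, a paralogue of Rps27 that p53 activates in human cells, was the member that fell. Its values were 3115, 3802 and 3394 in double deficient and 3948, 3582 and 3712 in p53 deficient libraries, against 4975, 4646 and 3968 in miR-34a deficient and 5523, 4535 and 5228 in wt libraries. All 6 libraries without p53 lay below the other 6, and the difference was -0.42 ± 0.09 (SE; limma adjusted p = 0.0324), or 0.748-fold. Rps27 itself had a difference of 0.10 ± 0.14 (SE; limma adjusted p = 0.685).

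These 4 calls lie close to the threshold. With the library direction that the deposited values lack as a covariate, none of the 4 was called and 321 genes were called in all. Leaving out 1 library at a time kept Rpl23a in 7 of 12 fits, Rpl27 in 6, Rps27l in 6 and Rps27a in 2. Rpl23a was lost without wt 2, miR-34a deficient 1, miR-34a deficient 2, double deficient 2 or double deficient 3. Rpl27 was lost without those 5 or p53 deficient 3. Rps27l was lost without wt 1, miR-34a deficient 1, miR-34a deficient 2, p53 deficient 3, double deficient 1 or double deficient 3. Rps27a was kept without wt 1 or miR-34a deficient 3.

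**Figure D3:**
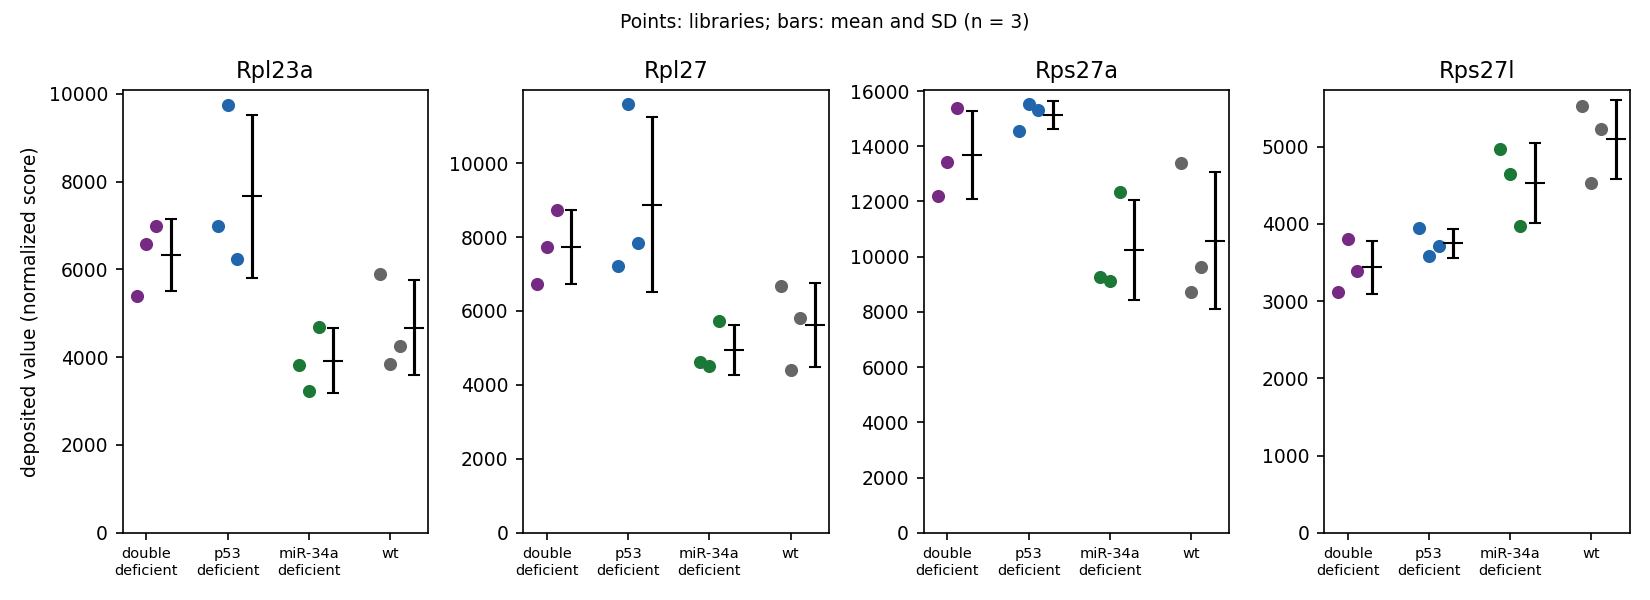
Deposited values of Rpl23a, Rpl27, Rps27a and Rps27l by genotype (points: libraries, bars: mean and SD, n = 3). In Rps27l the 6 libraries without p53 lie at 3115 to 3948, below the other 6 at 3968 to 5523.

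By subunit, the median difference with p53 loss was 0.15 for the 31 small subunit genes, of which 29 lay above 0, and 0.22 for the 46 large subunit and stalk genes, of which 38 did. Below the called genes, 12 core genes had an unadjusted p under 0.05, and all 12 lay above 0. The share of members at that level was below the share of all genes, as given above for this comparison. Rpl23, a large subunit protein that binds MDM2, had 22033, 25741 and 26301 in double deficient and 29211, 46758 and 25847 in p53 deficient libraries, against 19100, 17462 and 23109 in miR-34a deficient and 24147, 18552 and 22048 in wt libraries. Each p53 deficient library was above every wt library, and the difference of 0.47 ± 0.15 (SE) was not called (limma adjusted p = 0.0863). Rpl26, which binds the p53 messenger RNA in human cells, had 12068, 12842 and 15071 in double deficient and 11379, 15365 and 13217 in p53 deficient libraries, against 8083, 9039 and 11188 in miR-34a deficient and 13284, 8717 and 10716 in wt libraries. The highest wt library overlapped with the p53 deficient ones, and the difference of 0.40 ± 0.13 (SE) was not called (limma adjusted p = 0.0925). Rps13, a small subunit protein, differed by 0.37 ± 0.11 (SE; limma adjusted p = 0.0717).

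The single comparisons of p53 loss called fewer. In p53 deficient against wt 0 of 88 members were called by limma (0.0234% of all genes), with 5 at an unadjusted p under 0.05 (5.68%, against 15.3% of all genes). In double deficient against miR-34a deficient 0 of 88 were called by limma (0.905% of all genes), with 17 at an unadjusted p under 0.05 (19.3%, against 18.0% of all genes). Rpl37rt, a retrogene of Rpl37, had 574, 555 and 488 in double deficient libraries, against 1302, 1211 and 1087 in miR-34a deficient libraries. That difference of -1.15 ± 0.27 (SE) was not called (limma adjusted p = 0.0688), although the groups did not overlap. No member was called by limma for the interaction of both deletions (0.0234% of all genes), with 5 at an unadjusted p under 0.05 (5.68%, against 7.89% of all genes).

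Complete separation of the 3 libraries of 2 groups was counted in the members and in all genes, with no test of the difference in share. In double deficient against miR-34a deficient, 25 of 88 members did not overlap (28.4%, with 22 higher and 3 lower), against 27.3% of all genes. Double deficient against wt gave 12 of 88 (13.6%, all genes 19.8%) and p53 deficient against wt gave 7 (7.95%, all genes 16.2%). Double deficient against p53 deficient gave 6 (6.82%, all genes 19.6%) and miR-34a deficient against wt gave 4 (4.55%, all genes 10.1%). The 12 became 23 after quantile normalization (26.1%, all genes 21.0%), above the share of all genes, and 7 after median-of-ratios rescaling (7.95%, all genes 20.7%).

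Besides Rpl35a, no member was called with miR-34a loss. The median in miR-34a deficient against wt was -0.09 over the members and 0.03 over all genes, and without wt 1 the members' median was 0.04. Among members with a mean of at least 100, the lowest differences there were those of Rpl24 (-0.57 ± 0.31 SE), Rpl7a (-0.49 ± 0.20 SE) and Rpl29 (-0.35 ± 0.32 SE), all large subunit proteins, and none was called. Rpl7a had 7504, 5835 and 8013 in miR-34a deficient libraries, against 11903, 10129 and 8125 in wt libraries, with no overlap. In double deficient against p53 deficient libraries the members' median was -0.08, against 0.05 over all genes, and 0.06 over the members without p53 deficient 2. Rps27, a small subunit protein, had 2496, 1980 and 2145 in double deficient libraries, against 2907, 4402 and 2863 in p53 deficient libraries. These did not overlap, and the difference of -0.60 ± 0.19 (SE) was not called (limma adjusted p = 0.185). Rpl36, a large subunit protein, differed by -0.61 ± 0.29 (SE) with overlap. In double deficient against wt libraries the members' median was 0.07, against 0.02 over all genes; it was 0.20 without wt 1, 0.14 without double deficient 1, 0.04 without wt 3, 0.03 without double deficient 3 and 0.00034 without wt 2.

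Of the members with fixed roles, none but Rps27l was called with p53 loss. The MDM2-binding genes Rpl5 and Rpl11 differed by 0.05 ± 0.12 and -0.19 ± 0.21 (SE), with limma adjusted p of 0.845 and 0.602. Rpl5 held 54.5 to 71.7% of the total of gene and copies over the libraries, and Rpl11 67.6 to 81.7%. The differences of these gene rows are therefore uncertain. Of their copies only Gm15500, a copy of Rpl5, was called, higher by 0.49 (limma adjusted p = 0.0358). Rpl11 had 16737, 46488 and 30033 in p53 deficient libraries, against 43083, 37184 and 35771 in wt libraries, with overlap. The stalk genes Rplp0, Rplp1 and Rplp2 differed by 0.19, 0.09 and -0.03, and Rpsa, the small subunit protein also known as the laminin receptor, by 0.20. None was called. Rpl38, a large subunit protein needed for translation of Hox transcripts in mice, differed by 0.54 ± 0.19 (SE; limma adjusted p = 0.115). Of the paralogues other than Rps27l, Rpl22l1 differed by -0.25, Rpl36al by 0.16, Rpl7l1 by 0.19 and Rpl3l, with values of at most 13 in any library, by 0.74 ± 0.39 (SE), and none was called.

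Copies within the 88 behaved unevenly. Rps3a2, a near copy of Rps3a1 on chromosome 14 (99.5% identity), had 2, 1402 and 2114 in miR-34a deficient libraries and at most 18 in each of the other 9. Its difference of 5.27 ± 1.88 (SE) in miR-34a deficient against wt, the largest of any member there, was not called (limma adjusted p = 0.756). Rps3a3 had 2, 84 and 77 in miR-34a deficient libraries and at most 9 elsewhere, a difference of 1.99 ± 1.14 (SE; limma adjusted p = 0.898). Without miR-34a deficient 1, whose run code differs from that of most libraries, both were high in the remaining 2, and Rps3a2 was then called in miR-34a deficient against wt. Rps3a1 itself had 40014, 36283 and 36623 in miR-34a deficient libraries, against 49885, 40300 and 50226 in wt libraries. Rpl30, a large subunit protein, had 3901, 15350 and 8181 in double deficient libraries, against 4960, 3915 and 3040 in wt libraries, and was not called (limma adjusted p = 0.282).

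Many genes that build ribosomes rose with p53 loss. Of 50 factors for ribosomal RNA synthesis and ribosome biogenesis, 23 rose and none fell, with a median difference of 0.43, against 3 of 77 core genes called and 5.05% of all genes. Mybbp1a, a nucleolar regulator of ribosomal RNA transcription, had 9476, 11655 and 11748 in double deficient and 12129, 10362 and 11504 in p53 deficient libraries, against 7137, 4731 and 6357 in miR-34a deficient and 5816, 5814 and 6183 in wt libraries. It rose by 0.90 ± 0.11 (SE; limma adjusted p = 0.00433). Ftsj3, a methyltransferase of precursor ribosomal RNA, rose by 0.94 ± 0.12 (SE; limma adjusted p = 0.00507). The list was chosen with earlier results of these data known, and Mybbp1a and Ftsj3 were already known to change. Its count of 23 is therefore a description and cannot show an excess of calls. The nucleolar proteins Ncl and Npm1 rose by 0.67 and 0.55, and the methyltransferase Fbl by 0.63. The count fell to 2 without double deficient 3, 5 without miR-34a deficient 2, 10 without p53 deficient 3, 11 without double deficient 2, 12 without wt 2, 14 without miR-34a deficient 3 and 15 without miR-34a deficient 1. It was 10 with the missing library direction as a covariate. All 6 proliferation markers lay above 0 with p53 loss, with a median of 0.54 and none called, and their part in these counts was not tested.

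**Figure D4:**
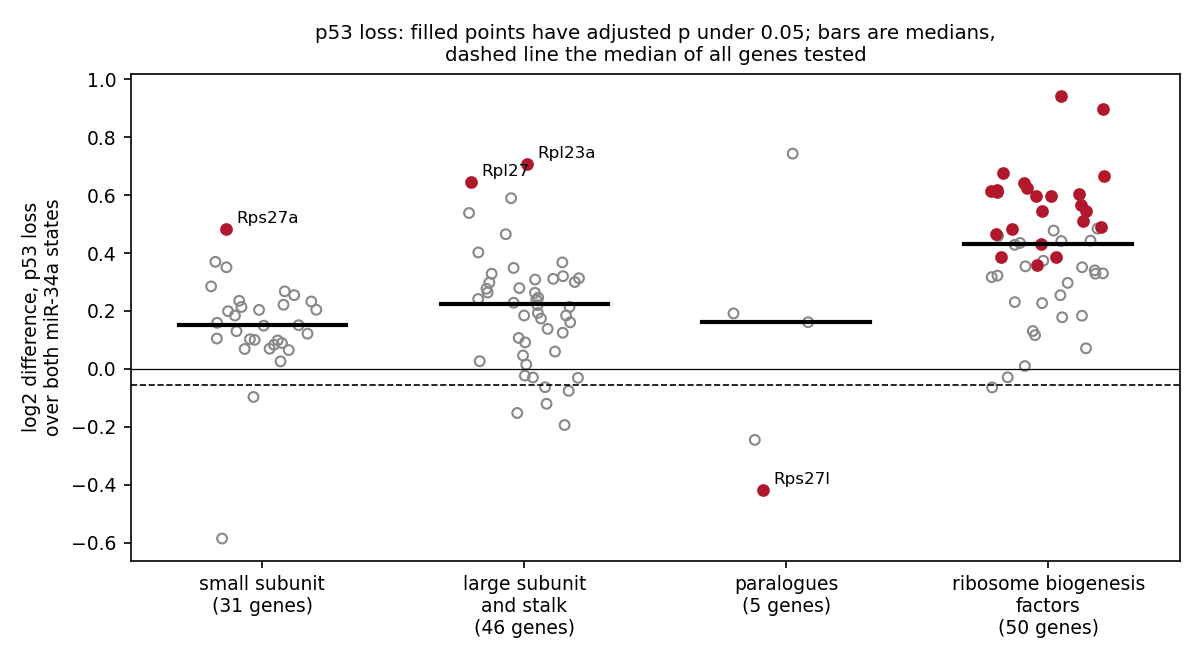
Log2 difference with p53 loss over both miR-34a states, for 31 small subunit, 46 large subunit and stalk, 5 paralogue and 50 ribosome biogenesis genes (filled: adjusted p under 0.05, bars: medians, dashed line: median of all genes, -0.06). The filled points are 23 of 50 among the biogenesis factors and 3 of 77 among the core genes.

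Other parts of the translation machinery were also counted for p53 loss, where 5.05% of all genes were called. These counts were not refitted with libraries left out. Chromosome positions of the genes in these lists, and of the biogenesis factors above, were not examined. How many of them share the chromosome of Trp53 is therefore not given here. Of 30 initiation factors, 6 rose and 1 fell, among them the helicase Eif4a1 (0.53 ± 0.09 SE, limma adjusted p = 0.0140) and its paralogue Eif4a2 (-0.88 ± 0.18 SE, limma adjusted p = 0.0227). Of 23 elongation factors and other genes with a 5' terminal oligopyrimidine tract, 1 rose, Gnb2l1, which encodes the small subunit scaffold RACK1, by 0.51. Of 77 mitochondrial ribosomal protein genes, 4 rose and 1, Mrps6, fell. Of 18 genes linking MYC, mTOR and p53 to ribosomes, Larp1, which binds the oligopyrimidine tract, rose by 0.58, Rps6kb1, the S6 kinase, by 0.57 and Myc by 0.49, while Trp53 and the mTOR inhibitor Sesn2 fell by 2.83 and 1.24. With miR-34a loss over both p53 states, none of these lists had a called gene (0.342% of all genes were called).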

How the data were processed

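RNA sequencing values of 12 tumour libraries were used, 3 for each of 4 genotypes. Each deposited value is a score, a whole number per gene symbol that the authors had normalized and rounded. Per the submitters' processing notes, mm10 was the build; aligner, counter and normalization: not given in the sources used here. Depth is therefore unknown and no count test was used. The labels do not say that libraries come from separate animals, and p-values cover only the spread among the libraries, which may be technical. Values were taken as log2 of value plus 1 without rescaling, and limma 3.58.1 in R 4.3.3 was run on 21322 genes whose mean reached 1 (1 mean a genotype, 8 residual degrees of freedom, trended prior), with Benjamini-Hochberg adjustment. The script was tested on simulated data. Deviations of libraries from genotype means span 7 directions where 8 were due (seventh singular value 32.2, eighth 0.179, in 9791 genes whose mean reached 500), and 47.2% of the squared weight of the missing direction lies on double deficient 3. The main fit still counts 8 residual degrees of freedom, so its standard errors and p-values may be too small. Copies were found with blastn 2.17.0 in GENCODE M21; 420 of 967 have a row. Library names carry 1 run code except miR-34a deficient 1 and p53 deficient 1. The members and lists were chosen with earlier results of these data known, and Mybbp1a and Ftsj3 were known to change. Named genes are Rpl35a, every called member, the 3 highest and 3 lowest members of each comparison with a mean of at least 100, members with fixed roles, called genes of the other lists, and annotated copies; of these, those that turn a result are printed. Pairs shown as sequences and the classes of members were chosen after values were seen. Alternatives were rescalings, other pseudocounts and filters, covariates, fits on the 2 groups alone and leaving out each library.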

Additional observations from a re-analysis of the deposited data

How the results depend on the processing

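Rpl35a stayed called in 26 of 26 alternatives in miR-34a deficient, and in double deficient, against wt, 26 of 26 in double against p53 deficient and 25 of 25 over both p53 states. For p53 loss over both miR-34a states, the 4 called members became 0 without the trended prior, 0 with the missing direction as a covariate, 2 with the Y-linked level, 2 without the pair of libraries with another run code (then Rps3a2 and Rps3a3) and, leaving out 1 library at a time, 0 to 4. Calls became 2 (adding Rps2) in miR-34a deficient against wt with those 2 groups alone, and 1 (Rpl37rt) in double against miR-34a deficient with those groups alone. Without that pair, Rps3a2 was added, giving 2 in miR-34a deficient against wt, 2 over both p53 states, 1 in double against miR-34a deficient and 1 for the interaction. Leaving out 1 library gave 1 to 2 in miR-34a deficient against wt, 1 to 2 over both p53 states, 1 to 2 in double against p53 deficient, 0 to 1 in double against miR-34a deficient and 0 to 1 for the interaction. The added calls were Rps3a2 without miR-34a deficient 1, Rps2 without double deficient 1 or double deficient 2, Rpl3 without double deficient 2, and Rpl37rt without wt 2 or wt 3. p53 deficient against wt gave 0 in all 26. With members summed with their annotated copies, chosen after seeing the data, Rpl3 was called too, giving 5 for p53 loss over both miR-34a states, 2 in double deficient against wt and 1 against miR-34a deficient, and its direction reversed to -1.98, -1.59, -1.44 (against p53 deficient), -0.92 (miR-34a loss over both p53 states) and -1.05 (interaction). The cause of these changes was not tested. The medians moved by less than the SD between libraries (0.188) in every alternative. That SD exceeded the size of every median, so this does not show that they are stable. In p53 deficient against wt the median ran from -0.016 to 0.29, and in miR-34a deficient against wt from -0.16 to 0.044. It ran from -0.18 to 0.057 in double against p53 deficient and from -0.19 to 0.13 for the interaction.

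Same-numbered libraries were not treated as pairs: their deviations correlated at over 0.1 in 7 of 18 pairs, and for 4 of 12 libraries the most similar library of another genotype had the same number. With the replicate block, 2 members were called for p53 loss (Rpl23a and Rps27l).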
